A study of Mus musculus with 5 samples.

Results

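The 10 genes followed here, chosen by their symbols, are known in the mouse for imprinting and for a part in fetal growth: H19, Dlk1, Meg3, Rian, Peg3, Plagl1, Cdkn1c, Grb10, Mest and Ndn. All 10 of 10 symbols were found once in the counts of every library. The data were single-cell RNA-seq counts (UMIs, which count molecules) from 3 libraries of the penis of male mice at postnatal day 6 (P6), 1 library of forelimb and 1 of hindlimb from male embryos at embryonic day 15. The genotype in the labels was C57BL/6N for all 5 libraries, with no transgene and no treatment, and the study's methods name the closely related substrain C57BL/6J. The methods describe trimming of the penis before dissociation. They give 6 male embryos for the dissection of the limbs, and do not say whether embryos were pooled. The limb age used here is that of the labels, and places in the study give other half-day stages.

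Tissue, age and library went together in every comparison, so penis against limb cannot be told apart from young pup against embryo. The forelimb and hindlimb libraries were taken as 1 limb group of 2, since each limb had 1 library. The sources used here do not say whether both limbs came from the same embryos, so these 2 libraries may not be independent. The study's methods give 3 pups from 2 litters, so at least 2 of the pups were littermates. The labels do not say which mouse each library came from. That each penis library came from a mouse of its own is not stated, so these 3 libraries may not be independent either. A p-value here measures the spread between these libraries only. The parental allele of a transcript cannot be read from these counts, so imprinting itself was not measured.

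An imprinted gene is expressed mainly from the copy inherited from the mother or mainly from the copy inherited from the father, through methylation marks set in the germ line. Many such genes act on growth before birth and are turned down in many organs in the weeks after birth. Of the genes followed here, H19, Meg3, Rian, Cdkn1c and, in most tissues, Grb10 are known as maternally expressed, and Dlk1, Peg3, Plagl1, Mest and Ndn as paternally expressed. H19, Meg3 and Rian are long noncoding RNAs. Dlk1 encodes a transmembrane protein related to Notch ligands, Cdkn1c (p57) an inhibitor of cyclin-dependent kinases, Grb10 an adaptor that restrains insulin and IGF signalling, and Plagl1 (Zac1) and Peg3 zinc finger transcription factors. Mest encodes a hydrolase-fold protein and Ndn (necdin) a MAGE family protein.

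Their places in the genome (GRCm38, GENCODE) fell on 5 chromosomes. Dlk1 (chr12:109452823-109463336), Meg3 (chr12:109541001-109571726) and Rian (chr12:109603940-109661716) lie in 1 imprinted domain on the plus strand. H19 (chr7:142575529-142578143, minus strand) lies next to Igf2, with Cdkn1c (chr7:143458339-143461050, minus strand) further along chromosome 7, which also holds Peg3 (chr7:6703892-6730431, minus strand) and Ndn (chr7:62346569-62350262, plus strand). Plagl1 (chr10:13060504-13131694, plus strand), Grb10 (chr11:11930508-12038683, minus strand) and Mest (chr6:30723547-30748465, plus strand) stand on other chromosomes. The 3' end of Mest overlaps Copg2 on the other strand, and the strand setting of the counting is not given in the sources used here.

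Of the 10 genes, 4 are annotated hosts of microRNAs, which these 3' counts do not measure, and 1 locus is shown for each. The sequences are shown because they name what else the host transcript can carry. They are the RefSeq mature forms (GRCm38.p6), written 5′ to 3′ with the seed, bases 2 to 8, in capitals. The first pair lies in the exon of H19 (chr7:142577064-142577147, minus strand), the second pair in an intron of Mest (chr6:30741299-30741396, plus strand), and the last pairs in Meg3 (chr12:109563692-109563785) and in an intron of Rian (chr12:109618258-109618336), both on the plus strand.
mmu-miR-675-5p: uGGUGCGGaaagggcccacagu
mmu-miR-675-3p: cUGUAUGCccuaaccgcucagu
mmu-miR-335-5p: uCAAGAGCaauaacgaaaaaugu
mmu-miR-335-3p: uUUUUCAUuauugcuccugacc
mmu-miR-770-5p: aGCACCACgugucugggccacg
mmu-miR-770-3p: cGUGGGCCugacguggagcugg
mmu-miR-370-5p: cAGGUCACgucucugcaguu
mmu-miR-370-3p: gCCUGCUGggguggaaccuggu
No 2 of these 8 share a seed.

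The promoter table (RefSeq, GRCm38.p6) held 12 windows for 8 of the 10 genes, and H19 and Cdkn1c had no entry. The 250 bases before the start were searched on both strands for TGCCGC, the methylated motif bound by ZFP57, a factor known for keeping imprints. It was found in 4 of the 12 windows, those of Meg3, Mest (2 overlapping windows) and Plagl1, and in 8.68% of 32851 promoters of the same length. The 3 windows are printed because they carry this motif, with its letters (as GCGGCA where it reads on the other strand) in capitals, together with CCAAT and TATAAA where present (in Meg3 TATAAA overlaps its copy on the other strand). They are Meg3 (chr12:109540746-109540995), Mest (chr6:30737800-30738049) and Plagl1 (chr10:13090582-13090831), all on the plus strand.
Meg3: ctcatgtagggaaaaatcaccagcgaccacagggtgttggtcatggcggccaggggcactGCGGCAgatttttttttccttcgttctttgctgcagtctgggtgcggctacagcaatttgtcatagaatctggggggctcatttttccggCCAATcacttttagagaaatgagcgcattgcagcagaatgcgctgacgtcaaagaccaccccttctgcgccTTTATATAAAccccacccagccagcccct
Mest: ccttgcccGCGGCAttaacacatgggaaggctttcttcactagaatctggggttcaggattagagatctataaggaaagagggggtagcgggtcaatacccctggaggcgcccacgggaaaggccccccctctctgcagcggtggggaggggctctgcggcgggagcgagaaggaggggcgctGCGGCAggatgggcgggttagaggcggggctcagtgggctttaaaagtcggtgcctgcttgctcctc
Plagl1: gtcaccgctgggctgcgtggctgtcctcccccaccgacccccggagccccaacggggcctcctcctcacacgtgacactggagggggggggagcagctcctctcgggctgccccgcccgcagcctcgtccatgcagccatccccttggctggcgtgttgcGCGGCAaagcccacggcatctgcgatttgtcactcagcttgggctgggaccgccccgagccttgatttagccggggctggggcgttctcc
The window of Mest holds the motif at 2 places, Meg3 and Plagl1 at 1 each. A match is a description of these letters and not a bound site.

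The libraries held 8411 to 11397 barcodes for penis and 25937 to 28266 for limb, with 70554067 to 162335993 UMIs each, and any 2 libraries shared 20 to 203 barcodes. After filtering, 5708 to 7085 cells were kept per penis library, with a median of 8792 to 9909 UMIs per cell, against 20514 and 22057 limb cells with medians of 6057 and 5358. Cells were assigned to a type when they had UMIs of at least 3 of its 6 markers, none of them among the 10 genes, and a name ending in "-like" says no more than that. In all, 8 types had at least 20 cells in every library: mesenchyme, tendon, chondrocyte, mural, endothelial, glial, keratinocyte and white blood. Levels are given as UMIs per 1000000 UMIs (CPM), summed over the cells of a type in a library.

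Several types were not alike in the 2 tissues. The 6 cartilage markers summed to 1053 to 1288 CPM in penis chondrocyte-like cells and to 9560 and 10500 CPM in limb. The 10 leading genes of the penis cells held 4 of these markers (Col9a1, Col9a3, Col2a1 and Acan), and also Myoc and Krt8. Mbp, which encodes a myelin protein, was among the 10 leading genes of glial-like cells in penis and not in limb. In these cells the 6 endothelial markers summed to 23.6 to 45.8 CPM in penis and 141 and 75.6 CPM in limb, and the 6 muscle markers to 0.89 to 2.69 CPM and then 31.1 and 31.0 CPM. In keratinocyte-like cells Krt15, Krt5, Krt14 and Psca were among the 10 leading genes in both tissues, and Asprv1, Cnfn, Krt4 and Krt19 in limb only. There the 6 mural markers summed to 69.7 to 84.6 CPM in penis and 239 and 264 CPM in limb. The 6 cartilage markers summed to 13.3 to 14.4 CPM and then 61.8 and 59.9 CPM, and the 6 white blood markers to 2.87 to 4.65 CPM and then 29.9 and 29.2 CPM. Limb white blood-like cells were led by mast cell genes (Cpa3, Cma1, Tpsb2) and those of penis by S100a9, while Lyz2, Tyrobp, Fcer1g and C1qb were among the 10 leading genes in both tissues. The smooth muscle genes Acta2 and Actg2 were among the 10 leading genes of mural-like cells in penis and not in limb, and Myh11 was among them in both. The 10 leading genes of penis mesenchyme-like cells held none of its own markers and none of another list. In mesenchyme-like cells the 6 endothelial markers summed to 56.5 to 63.3 CPM in penis and 122 and 113 CPM in limb. There the 6 cartilage markers summed to 34.4 to 41.5 CPM and then 74.9 and 79.6 CPM. The 6 muscle markers were lower in limb there, at 63.8 to 72.5 CPM in penis and 23.55 and 18.4 CPM in limb, as were the osteoblast markers. In tendon-like cells the 6 endothelial markers summed to 15.58 to 24.02 CPM in penis, 132 CPM in forelimb and 90.7 CPM in hindlimb. There the 6 osteoblast markers were lower in limb, at 31.54 to 36.04 CPM in penis and 7.64 and 7.14 CPM in limb. The part that these differences in cell makeup had in the results was not tested.

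In mesenchyme-like cells, which made up the largest type (2284 to 2768 cells per penis library, 6892 and 7515 per limb library), 6 of the 10 genes were higher in limb and none was lower (at an unadjusted p under 0.05, 0 were lower, and DESeq2 also called 0). A gene was called when edgeR's quasi-likelihood test gave an adjusted p under 0.01 and the log2 fold change, coded as limb minus penis, was above 1 or below -1. Over all 18860 genes tested there, 12.1% were called higher in limb and 12.3% lower, and the median log2 fold change was -0.0088, against a median of 1.48 for the 10 genes. Across all 8 types the 10 genes gave 79 tested comparisons, of which 49 were called higher in limb, 1 lower and 29 neither. These counts are descriptions of genes chosen with earlier results known.

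**Figure D1:**
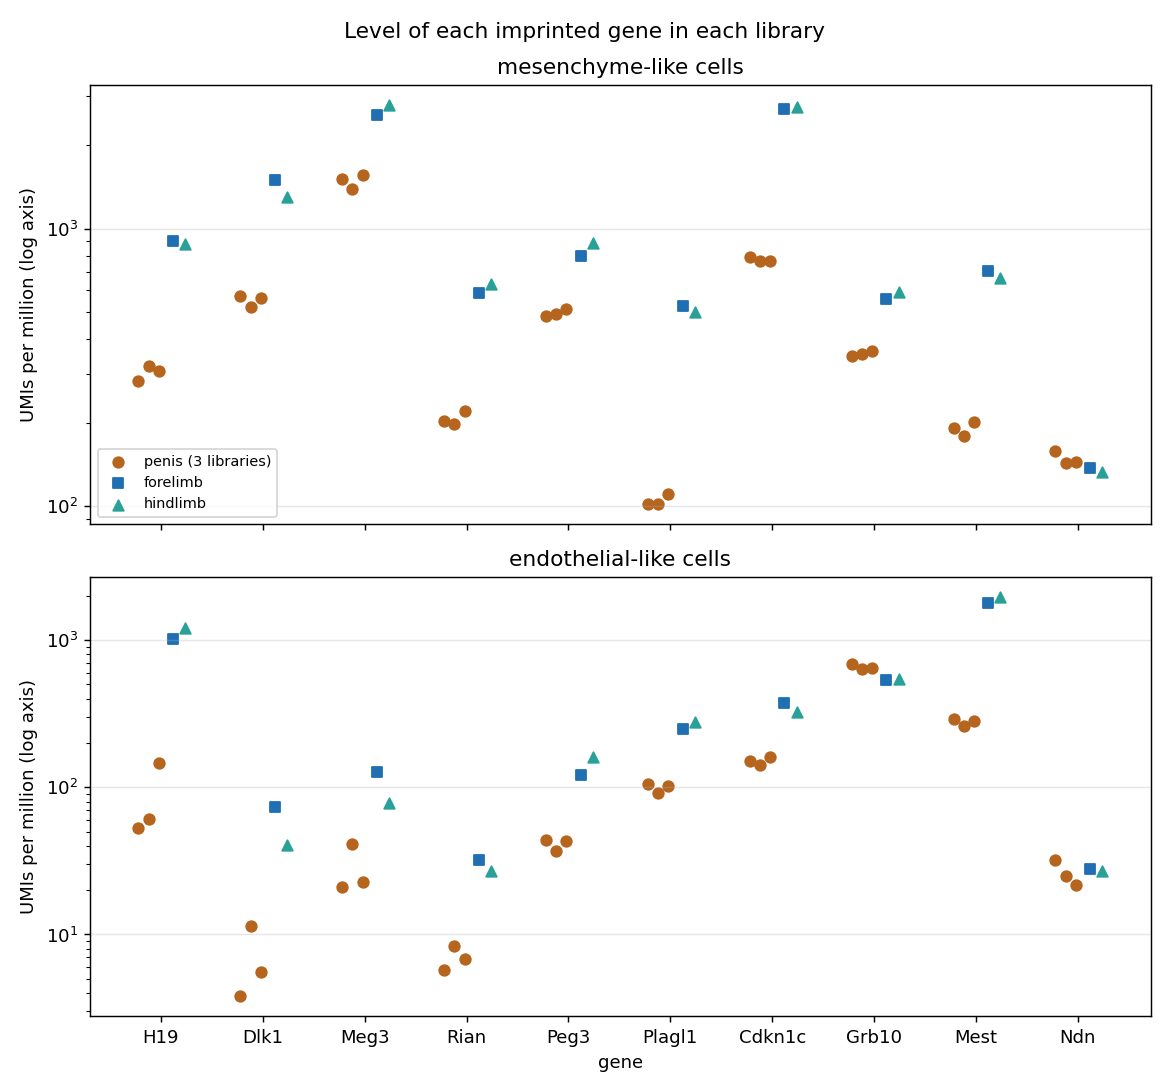
CPM (log axis) of each gene in each library, in mesenchyme-like and endothelial-like cells. Circles are the 3 penis libraries, squares forelimb and triangles hindlimb. In mesenchyme-like cells the limb libraries lie above the penis libraries for each gene but Ndn, and in endothelial-like cells H19 and Mest lie highest in limb.

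The growth-linked zinc finger gene Plagl1 showed the largest difference of the 10 in mesenchyme-like cells. It measured 101, 101 and 111 CPM in the penis libraries, 525 CPM in forelimb and 501 CPM in hindlimb, a log2 fold change of 2.33 ± 0.06 (SE; adjusted p = 1.74e-09, edgeR). The groups lay far apart, with the lowest limb library at over 4 times the highest penis library. H19 measured 283, 320 and 307 CPM in penis, 901 CPM in forelimb and 878 CPM in hindlimb (log2 fold change 1.59 ± 0.08, adjusted p = 5.49e-08, edgeR). Cdkn1c, the cell-cycle inhibitor, measured 789, 765 and 763 CPM in penis and 2695 and 2738 CPM in limb (1.85 ± 0.08 on the log2 scale). Mest measured 191, 179 and 200 CPM in penis and 702 and 663 CPM in limb (1.88 ± 0.07 on the log2 scale). For all of these the spread among the 3 penis libraries was small beside the gap between tissues, and the forelimb and hindlimb libraries lay close to each other.

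The genes of the chromosome 12 domain did not all differ by the same amount. Dlk1 measured 573, 522 and 564 CPM in penis and 1497 and 1296 CPM in limb (log2 fold change 1.37 ± 0.08), and Rian 203, 197 and 220 CPM in penis and 584 and 631 CPM in limb (1.59 ± 0.06), so both were called. Meg3, the noncoding RNA that starts between them, measured 1507, 1387 and 1559 CPM in penis and 2576 and 2795 CPM in limb. Its log2 fold change of 0.89 ± 0.08 had an adjusted p of 5.31e-06 (edgeR) and stayed under the fold limit. Of the genes with a printed promoter window, Plagl1 and Mest were thus called here and Meg3 was not. Dlk1 was no longer called when cells were assigned after thinning each to 2000 UMIs (log2 fold change 0.71).

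Peg3 and Grb10 also passed the limit on p and not that on fold. Peg3 measured 484 to 514 CPM in penis and 797 and 885 CPM in limb (log2 fold change 0.79 ± 0.07), and Grb10 346 to 363 CPM in penis and 556 and 590 CPM in limb (0.73 ± 0.06). Ndn was the exception. It measured 158, 143 and 144 CPM in penis and 137 and 133 CPM in limb, a log2 fold change of -0.10 ± 0.07 (adjusted p = 0.198, edgeR).

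**Figure D2:**
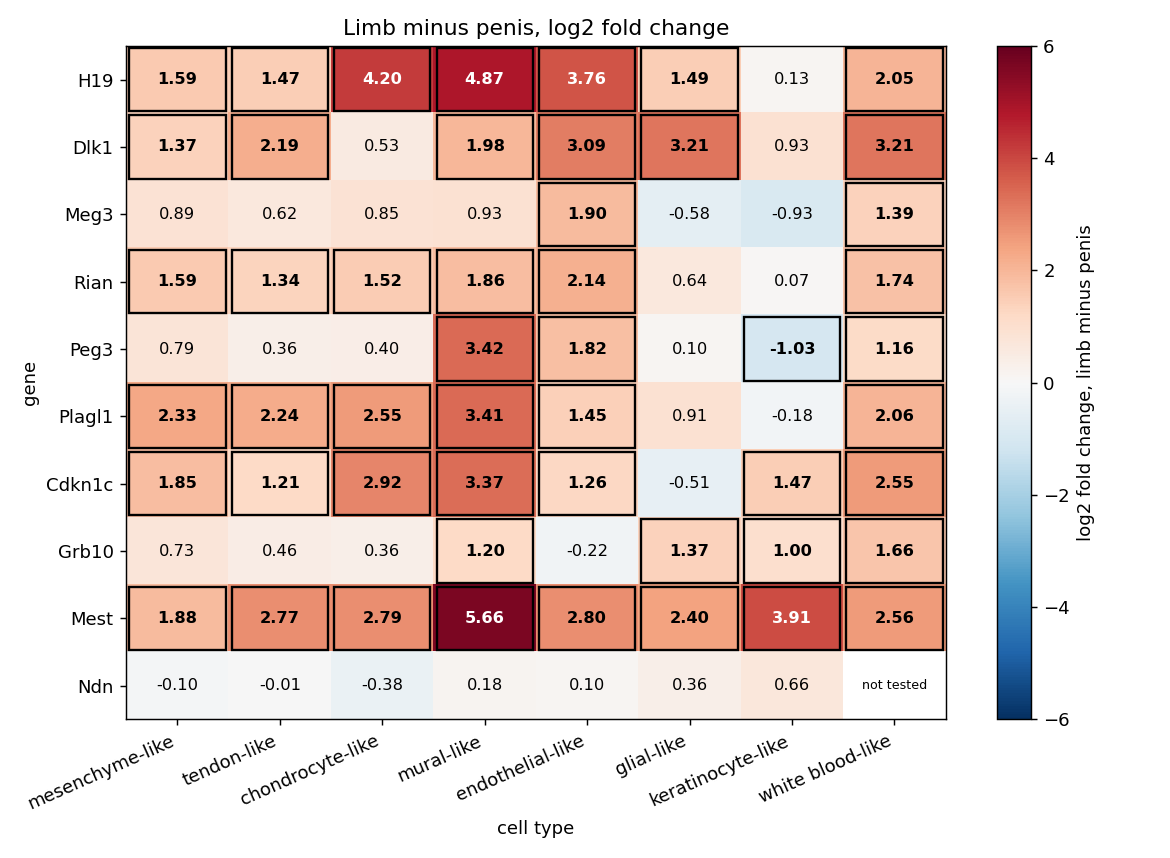
Log2 fold change, limb minus penis, for each gene (rows) in each of the 8 cell types (columns), with values printed in the cells and colour on the same scale. A black frame and bold print mark values past both limits; Mest is framed in every column, Ndn in none, and Peg3 in keratinocyte-like cells is the one framed value below 0.

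Mest was called in all 8 types and Ndn in none of the 7 in which it was tested. H19 and Cdkn1c were each called higher in limb in 7 types, Dlk1, Rian and Plagl1 in 6, Grb10 in 4, Peg3 in 3 and Meg3 in 2. The number called higher in limb in each type is read against the share of all genes called higher there. That number was 6 of 10 in tendon-like cells (6.2% of all genes), 5 of 10 in chondrocyte-like cells (6.82%), 8 of 10 in mural-like cells (4.46%) and 8 of 10 in endothelial-like cells (5.55%). It was 4 of 10 in glial-like cells (6.17%), 3 of 10 in keratinocyte-like cells (4.94%) and 9 of 9 in white blood-like cells (10.2%). None was called lower by edgeR or DESeq2 in tendon-like (7.52% of all genes), chondrocyte-like (9.76%), mural-like (6.58%), endothelial-like (7.01%), glial-like (8.37%) or white blood-like cells (14.4%), and at an unadjusted p under 0.05 there was 1 lower in chondrocyte-like, 1 in endothelial-like and 2 in glial-like cells. The median log2 fold change of the 10 genes was 1.28 in tendon-like, 1.18 in chondrocyte-like, 2.68 in mural-like, 1.86 in endothelial-like, 0.78 in glial-like and 0.40 in keratinocyte-like cells, while the median over all genes lay between -0.0285 and 0.0184 in each of the 8 types.

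RNA released from broken cells enters every droplet, so a low level in a type need not come from its own cells. White blood-like cells gave a gauge of this, because they are not expected to make fibrillar collagen. Col1a1, Col1a2 and Col3a1 reached 1.80% to 3.39% of their mesenchyme-like level there, and the 10 genes reached 0.67% to 12.3%. In limb Meg3 lay within or just below the collagen range (3.32% in forelimb, 2.45% in hindlimb), while H19 (12.3% and 11.8%) and Grb10 (8.48% and 8.33%) lay well above it. The 9 calls in white blood-like cells concern low levels, for example Dlk1 at 4.79 to 8.04 CPM in penis and 48.4 and 64.9 CPM in limb, and the part of free RNA in them was not tested. When the depth limits of the filter were read as UMIs and not as genes, 5 of the 10 genes could be tested there, of which 3 were called and Meg3 and Grb10 were not (583 higher and 851 lower of all 5170 genes).

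Outside white blood-like cells, 40 comparisons were called higher in limb. In 35 of them both limb libraries reached at least 2 times the level in white blood-like cells of the same library, and in 5 they did not. Those 5 were Dlk1, Meg3 and Rian in endothelial-like cells and H19 and Dlk1 in glial-like cells, where the lowest limb ratio ran from 0.65 to 1.14. Dlk1 in endothelial-like cells measured 3.80 to 11.5 CPM in penis and 73.8 and 40.7 CPM in limb, close to the white blood-like values. These 5 differences lie at the white blood-like level and are not read as expression in those types.

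**Figure D3:**
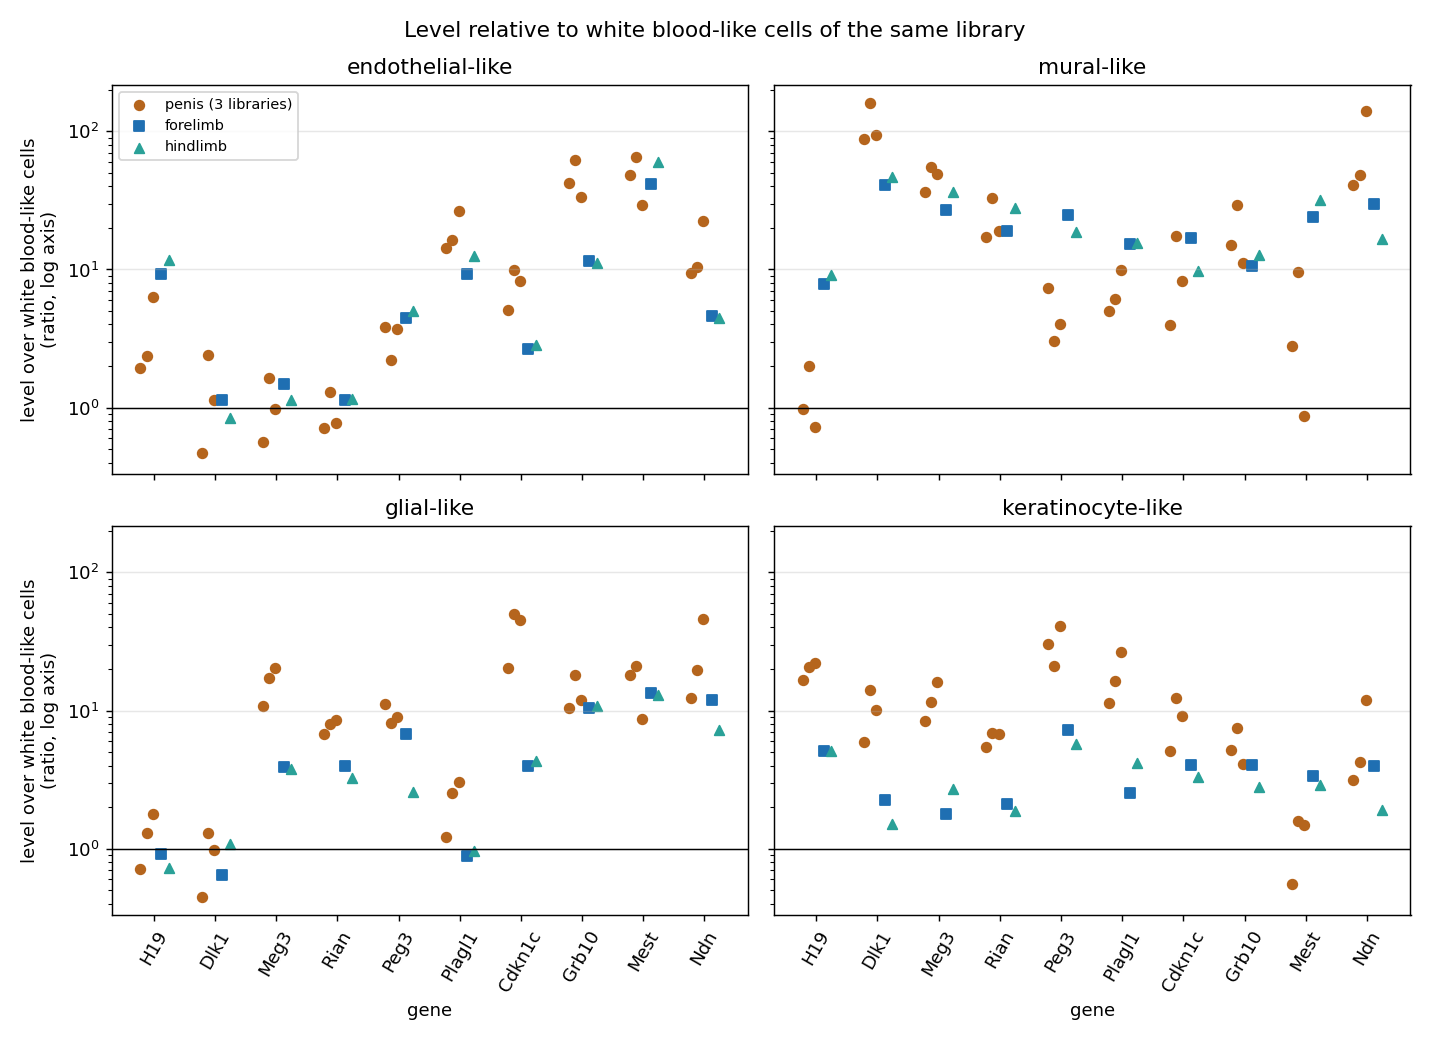
Ratio of each gene's level in 4 types to its level in white blood-like cells of the same library (log axis, line at 1). Circles are the 3 penis libraries, squares forelimb and triangles hindlimb; Dlk1, Meg3 and Rian in endothelial-like cells and H19 and Dlk1 in glial-like cells lie around 1, while Mest in endothelial-like cells lies at 29 or above in every library.

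Endothelial-like cells (341 to 414 per penis library, 277 and 224 per limb library) held Mest at a high level in both tissues and H19 at a high level in limb. Mest measured 289, 260 and 284 CPM in penis, 1775 CPM in forelimb and 1972 CPM in hindlimb (log2 fold change 2.80 ± 0.08, adjusted p = 6.51e-15, edgeR). In every library this was the highest level of Mest among the 8 types, and averaged over both tissues it lay 1.07 ± 0.08 on the log2 scale above mesenchyme-like cells, against 11.4% of all genes called higher in that contrast. H19 measured 53.0, 60.6 and 146 CPM in penis and 1018 and 1210 CPM in limb (3.76 ± 0.23 on the log2 scale). The third penis library stood above the other two, and all 3 lay far below both limb libraries. Plagl1 (90.8 to 105 CPM in penis, 249 and 277 CPM in limb, log2 fold change 1.45 ± 0.09), Cdkn1c (142 to 161 CPM, then 373 and 324 CPM, 1.26 ± 0.09) and Peg3 (37.1 to 43.8 CPM, then 121 and 161 CPM, 1.82 ± 0.13) were also called. Markers of other types were higher in limb here too, with the 6 cartilage markers at 8.31 to 11.5 CPM in penis and 40.1 and 36.9 CPM in limb, the 6 mural markers at 7.61 to 13.6 CPM and then 30.0 and 30.4 CPM, and the 6 mesenchyme markers at 39.9 to 56.4 CPM and then 91.5 and 70.6 CPM, and their part in these results was not tested. Grb10 was an exception, at 637 to 683 CPM in penis and 539 and 547 CPM in limb (log2 fold change -0.22 ± 0.08, adjusted p = 0.0306, edgeR). Its penis level was the highest among the 8 types in all 3 penis libraries.

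Mural-like cells, the pericyte and smooth muscle class of vessel walls, were the smallest type (40 to 44 cells per penis library, 40 and 30 per limb library). The 6 mesenchyme markers summed there to 882 to 1131 CPM in penis and 708 and 757 CPM in limb. Their part in the results of this type was not tested. Mest measured 16.8, 38.4 and 8.47 CPM in penis and 1026 and 1060 CPM in limb, a log2 fold change of 5.66 ± 0.31 (adjusted p = 6.28e-13, edgeR). The penis values rest on 5, 9 and 2 UMIs. H19 measured 26.8, 51.1 and 16.9 CPM in penis and 862 and 937 CPM in limb (4.87 ± 0.29 on the log2 scale), again from few UMIs in penis, 8, 12 and 4. These penis levels of H19 were 0.98, 2.00 and 0.73 times the white blood-like level of the same library, and that of Mest in the third penis library 0.87 times. The size of both fold changes is thus uncertain, and the SE given for each is likely too small. Peg3 (46.6 to 83.8 CPM in penis, 677 and 606 CPM in limb), Plagl1 (34.1 to 38.1 CPM, then 411 and 342 CPM) and Cdkn1c (117 to 251 CPM, then 2355 and 1117 CPM) had log2 fold changes of 3.42 ± 0.27, 3.41 ± 0.29 and 3.37 ± 0.27. Dlk1 was high in both tissues here, at 711, 771 and 453 CPM in penis and 2668 and 2256 CPM in limb (1.98 ± 0.19 on the log2 scale). With at least 4 of 6 markers required, 9 of the 10 genes could be tested and 5 were called (130 higher and 203 lower of all 3918 genes). That setting left 16 forelimb and 17 hindlimb cells, below the 20 required of a type in the main setting. Peg3 (1.53 on the log2 scale) and Grb10 (0.74) were then not called, Plagl1 was not tested, and Cdkn1c was 1.46. With the filter limits read as UMIs, Dlk1 was 3.49.

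Chondrocyte-like cells (65 to 98 per penis library, 1731 and 2314 per limb library) held the highest H19 of the 8 types in both limb libraries. It measured 126, 92.1 and 96.2 CPM in penis, 2038 CPM in forelimb and 1967 CPM in hindlimb (log2 fold change 4.20 ± 0.14, adjusted p = 2.29e-10, edgeR). Cdkn1c, which is known to be needed for cartilage cells to leave the cell cycle and mature, measured 341, 332 and 246 CPM in penis and 2331 and 2534 CPM in limb (2.92 ± 0.14 on the log2 scale). Mest (77.3 to 106 CPM in penis, 716 and 602 CPM in limb), Plagl1 (83.8 to 91.4 CPM, then 563 and 505 CPM) and Rian (169 to 225 CPM, then 570 and 550 CPM) were called at 2.79 ± 0.15, 2.55 ± 0.13 and 1.52 ± 0.13 on the log2 scale. Dlk1, Meg3, Peg3 and Grb10 had log2 fold changes of 0.36 to 0.85, and Ndn one of -0.38, all under the fold limit. With cells assigned after thinning, H19 was 2.18 and Cdkn1c 1.18 on the log2 scale, both still called. The low cartilage marker sum in the penis cells, given above, stands beside each of these values.

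In tendon-like cells no gene of the 10 had an interaction past both limits in edgeR's test (2.02% of all genes called higher, 1.84% lower, and 4 of the 10 at an unadjusted p under 0.05). Mest (interaction 0.92 ± 0.16 on the log2 scale) and Dlk1 (0.87 ± 0.20) passed the limit on p alone, and 3 genes were called with at least 4 of 6 markers and 2 without the second penis library. The shares of all genes called under those settings were not computed, so these counts are descriptions only. Mest measured 154 to 176 CPM in penis and 1195 and 1075 CPM in limb (log2 fold change 2.77 ± 0.11), Plagl1 70.5 to 92.7 CPM and then 407 and 370 CPM (2.24 ± 0.13), and Dlk1 151, 267 and 282 CPM and then 1183 and 984 CPM (2.19 ± 0.18). H19, Rian and Cdkn1c were called at 1.47 ± 0.10, 1.34 ± 0.11 and 1.21 ± 0.10 on the log2 scale. Plagl1 was 1.11 when 4 markers were required. With the filter limits read as UMIs, which left 8 to 17 tendon-like cells per penis library, H19 was 2.70 and Dlk1 4.17. Cdkn1c was under the fold limit when 4 markers were required (0.83) and when cells were assigned after thinning (0.98). The endothelial and osteoblast marker sums of tendon-like cells, given above, stand beside each of these values, and their part was not tested.

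Keratinocyte-like cells (178 to 266 per penis library, 120 and 150 per limb library) differed from the other types in several genes. H19 was already high in penis, at 456, 526 and 513 CPM, and measured 560 and 532 CPM in limb (log2 fold change 0.13 ± 0.13, adjusted p = 0.544, edgeR). It was the highest level of H19 among the 8 types in each penis library. Peg3 was the one gene called lower in limb, at 344, 353 and 479 CPM in penis and 197 and 185 CPM in limb (-1.03 ± 0.16 on the log2 scale, against 4.99% of all genes called lower). Leaving out the third penis library (-0.90) or the hindlimb library (-0.97) put Peg3 just inside the fold limit and ended the call, as did assignment after thinning (-0.94) and the filter read as UMIs (-0.59, adjusted p = 0.168, edgeR). Meg3 measured 294 to 376 CPM in penis and 152 and 187 CPM in limb (-0.93 ± 0.15 on the log2 scale), under the fold limit. Peg3 was the one lower call in the main setting only. Without the low-count filter 2 of the 10 genes were called lower (750 of all 20061 genes). With at least 4 of 6 markers 2 were also called lower (511 of all 10852 genes). Mest measured 3.35, 6.33 and 14.5 CPM in penis, which is at the white blood-like level, and 142 and 94.9 CPM in limb (3.91 ± 0.32 on the log2 scale). Cdkn1c (151 to 178 CPM in penis, 566 and 375 CPM in limb) was called at 1.47 ± 0.16, and Grb10 at 1.00 ± 0.16, a value that 5 of 14 alternative settings moved below the fold limit.

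Glial-like cells (100 to 115 per penis library, 99 and 74 per limb library) held Mest at 110, 83.7 and 83.8 CPM in penis and 568 and 426 CPM in limb (log2 fold change 2.40 ± 0.16, adjusted p = 5.55e-09, edgeR). Grb10 measured 168, 189 and 229 CPM in penis and 491 and 533 CPM in limb (1.37 ± 0.14 on the log2 scale), and was not called with the filter limits read as UMIs (0.68, adjusted p = 0.0538, edgeR). Cdkn1c measured 603, 723 and 880 CPM in penis and 557 and 492 CPM in limb (-0.51 ± 0.14 on the log2 scale, adjusted p = 0.0106, edgeR), and Meg3 401 to 469 CPM in penis and 336 and 258 CPM in limb (-0.58 ± 0.14). Neither was called, and both values turned positive when cells were assigned after thinning (0.24 for Cdkn1c and 0.25 for Meg3). With the filter limits read as UMIs, a setting that left 14 to 25 glial-like cells per penis library, Cdkn1c was called higher in limb (1.94, adjusted p = 0.000293, edgeR). Its direction thus depends on which cells are kept. In glial-like cells Col1a1, Col1a2 and Col3a1 reached 33.6% to 49.0% of their mesenchyme-like level in penis and 7.81% to 18.1% in limb. The part of free RNA in the glial-like values was not tested.

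Depth differed between the tissues, so shares of cells with at least 1 UMI were also computed after thinning each cell to 2000 UMIs. In mesenchyme-like cells H19 was then found in 25.0%, 26.7% and 27.3% of penis cells and in 66.8% and 68.9% of limb cells, where the unthinned share in the first penis library was 46.7%. White blood-like cells had H19 in 4.90% to 6.10% of penis cells and 15.9% and 17.7% of limb cells, which is taken as the reference share. In endothelial-like cells H19 was found in 6.04% to 9.47% of penis cells, near that share, and in 74.3% and 77.8% of limb cells. Cdkn1c was found in 57.9% to 58.1% of penis and 85.5% and 89.5% of limb mesenchyme-like cells, and Mest in 32.0% to 35.4% of penis and 92.4% and 93.9% of limb endothelial-like cells. In glial-like cells the share with Cdkn1c was higher in limb (54.2% and 47.4%) than in penis (31.2% to 39.3%), against the order of the CPM values, and no order is read from it. Ndn was found in 22.9% to 25.4% of penis and 21.2% and 20.9% of limb mesenchyme-like cells.

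**Figure D4:**
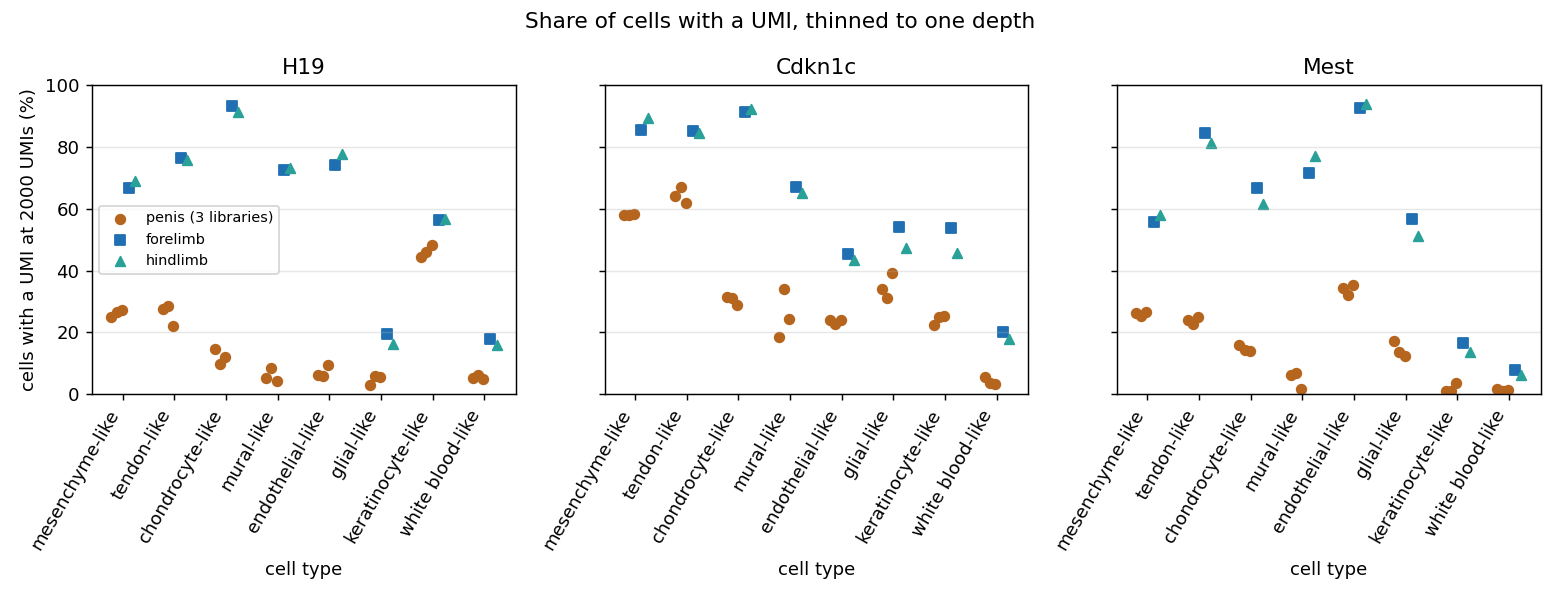
Share of cells (%) with at least 1 UMI of H19, Cdkn1c or Mest after thinning each cell to 2000 UMIs, by cell type. Circles are the 3 penis libraries, squares forelimb and triangles hindlimb; white blood-like cells give the reference share. In keratinocyte-like cells penis and limb lie close for H19, with penis at 44.5% to 48.1% and limb at 56.3% and 56.6%.

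The limb minus penis difference of each type was set against that of mesenchyme-like cells by an interaction term, in a joint fit with the library as a block. H19 differed more in chondrocyte-like (interaction 2.68 ± 0.25 on the log2 scale), endothelial-like (2.18 ± 0.22) and mural-like cells (3.32 ± 0.44), and less in keratinocyte-like cells (-1.47 ± 0.23). Mest differed more in mural-like (3.83 ± 0.35) and keratinocyte-like cells (2.02 ± 0.31), where its penis levels rest on few UMIs or lie at the white blood-like level, so these sizes, and that of H19 in mural-like cells, are uncertain. Plagl1, Peg3, Meg3 and Rian had negative interactions in keratinocyte-like cells, where the log2 fold changes of Peg3 (-1.03) and Meg3 (-0.93) were below 0, while both were above 0 in mesenchyme-like cells. These interactions were -2.52 ± 0.17, -1.84 ± 0.19, -1.83 ± 0.22 and -1.54 ± 0.22. In forelimb and hindlimb keratinocyte-like cells Meg3 lay at 1.77 and 2.73 times the white blood-like level and Rian at 2.12 and 1.87 times, so the sizes for these genes are uncertain. With cells assigned after thinning, the interaction of H19 was 1.25 in chondrocyte-like (adjusted p = 0.0218, edgeR) and -0.90 in keratinocyte-like cells and that of Meg3 -1.10 in keratinocyte-like cells, and these were no longer called. With at least 4 of 6 markers, which left 16 forelimb and 17 hindlimb mural-like cells, H19 there was 2.74 (adjusted p = 0.0677, edgeR) and no longer called. The share of all 15271 genes called in these contrasts was 4.92% higher and 4.11% lower for chondrocyte-like, 3.88% and 5.38% for endothelial-like, 0.648% and 1.18% for mural-like and 3.61% and 4.15% for keratinocyte-like cells. The members called numbered 2 higher and 0 lower, 2 and 0, 4 and 0, and 1 and 5 in these 4 types. In glial-like cells 0 were higher and 3 lower (3.71% and 4.96% of all genes), among them Cdkn1c at -2.37 ± 0.21. The limb minus penis value of Cdkn1c in glial-like cells went from -0.51 to 1.94 with the filter limits read as UMIs. The joint fit was not run under that setting, so how this interaction depends on it is not known. In white blood-like cells 3 were higher and 0 lower (8.19% and 8.87%), all at low levels.

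Across types, averaged over both tissues, the chromosome 12 genes differed between types. Compared with mesenchyme-like cells, Dlk1, Meg3 and Rian were lower in endothelial-like cells by log2 values of -5.41 ± 0.14, -5.14 ± 0.12 and -4.55 ± 0.10, where 6 of the 10 genes and 18.3% of all genes were called lower. The endothelial-like values of these 3 genes lie at the white blood-like level, at 0.47 to 2.40 times it over the 5 libraries, and the part of free RNA in these differences was not tested. The number called lower was 8 in glial-like (13.3% of all genes), 9 in keratinocyte-like (18.9%), 5 in mural-like (3.68%) and 10 in white blood-like cells (26.5%). None of the 10 was called higher in these 4 types by edgeR, against 7.26%, 10.1%, 2.61% and 19.3% of all genes. In edgeR's test against mesenchyme-like cells none of the 10 genes was called in either direction in tendon-like cells (1.47% of all genes called higher, 2.19% lower) or in chondrocyte-like cells (3% and 5.5%). At an unadjusted p under 0.05, 5 and 6 of the 10 passed, with log2 differences of at most 0.77 and 0.73 in size. This contrast is a mean over both tissues and does not show likeness. H19 in chondrocyte-like cells was at 28.8% to 44.6% of the mesenchyme-like level in penis and at 226% and 224% in limb. Skeletal muscle-like cells occurred in numbers only in limb (902 cells in forelimb, 748 in hindlimb), so they have no penis value. They held the highest Cdkn1c of any type, 9582 CPM in forelimb and 8290 CPM in hindlimb, beside 2695 and 2738 CPM in mesenchyme-like cells of the same libraries, and it was found in 99.9% and 99.7% of them at 2000 UMIs.

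Cdkn1c blocks the cell cycle and several of the other genes act on growth, so mesenchyme-like cells with UMIs of at least 2 of 6 division genes (Mki67, Top2a, Cenpf, Ube2c, Birc5, Cdk1) were compared with cells that had none. None of the 10 genes was called by edgeR, with 5 at an unadjusted p under 0.05, against 3.33% of all 18221 genes called higher and 0.285% lower, and 4 passed an adjusted p of 0.01 with small differences. Meg3 measured 1123, 977 and 1143 CPM in division-positive and 1559, 1434 and 1621 CPM in division-negative penis cells, and 2266 and 2399 CPM against 2728 and 3001 CPM in limb (log2 difference -0.42 ± 0.03, adjusted p = 2.99e-10, edgeR). It was lower in division-positive cells in all 5 libraries. Rian and Ndn differed by -0.20 ± 0.04 each and Grb10 by -0.12 ± 0.03. Cdkn1c differed by -0.03 ± 0.03 (adjusted p = 0.495, edgeR), at 676 to 726 CPM against 758 to 804 CPM in penis and 2790 and 2759 CPM against 2553 and 2644 CPM in limb. The difference between states was more positive in limb than in penis for Ndn (0.52 ± 0.08 on the log2 scale), Mest (0.42 ± 0.07), Peg3 (0.35 ± 0.07) and Meg3 (0.26 ± 0.05) at an adjusted p under 0.01 by edgeR, all under the fold limit, where 0.0988% of all genes were called higher and 0.702% lower. Within each state the limb libraries stayed far above the penis libraries for H19, Plagl1, Cdkn1c and Mest.

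The genes whose levels followed each member most closely were found over the 40 sums of 8 types in 5 libraries, among 15271 genes, by Pearson's r of log2(CPM + 5). The sums of a library share its depth and free RNA, so r is a description. H19 was most like Igf2 (r = 0.896), its neighbour on chromosome 7, and Plagl1 (0.877), and Plagl1 was most like Igf2 (0.900) and H19. Meg3 was most like Rian (0.972) and Arhgef25 (0.960), and Rian like B830012L14Rik (0.975) and Meg3. Peg3 was most like Usp29 (0.929), the gene next to it, and Bcl7c (0.907). Dlk1 was most like Aff2 (0.920) and Tbx18 (0.914), Cdkn1c like Itm2a (0.932) and Tceal8 (0.900), and Grb10 like Erc1 (0.964) and Serpinh1 (0.942). Mest was most like Cfdp1 (0.883) and Lpar4 (0.879), and Ndn like Efemp2 (0.959) and Mfap2 (0.957).

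A list of 28 other imprinted genes gave 11 called higher in limb and 0 lower in mesenchyme-like cells by edgeR, with a median log2 fold change of 0.73. The count of 0 lower stands beside 12.3% of all genes called lower, and several of the 17 not called had negative values, down to -0.99 for Dio3, with 6 of them lower at an unadjusted p under 0.05. The largest was Asb4, at 0.0488 to 0.113 CPM in penis and 18.1 and 18.8 CPM in limb (log2 fold change 7.57 ± 0.19). Its penis values rest on very few UMIs, so the size of this fold change is uncertain and its SE is likely too small. Phlda2 (0.343 to 0.756 CPM in penis, 6.47 and 8.76 CPM in limb, 3.63 ± 0.24), a gene known for restraint of placental growth, and Magel2 (1.42 to 1.85 CPM, then 16.1 and 17.1 CPM, 3.35 ± 0.12), a neighbour of Ndn, followed. Zdbf2, Mirg, Rtl1, Slc38a4 and Zim1 were called at 2.10, 2.03, 1.89, 1.80 and 1.62. Mirg and Rtl1 lie in the chromosome 12 domain of Dlk1, Meg3 and Rian. The fetal growth factor Igf2, which was outside the 8 named by size, measured 275 to 303 CPM in penis and 841 and 672 CPM in limb (1.41 ± 0.10 on the log2 scale).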

How the data were processed

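The authors deposited raw counts of UMIs for every gene in each barcode, made with Cell Ranger 7.0.0 and mm10. Whether introns were counted is not given in the sources used here. Barcodes were kept with the limits of the study's methods, which were read as numbers of genes (penis 500 to 6000, forelimb 100 to 9000, hindlimb 100 to 9500), with at most 5% (penis) or 10% (limb) mitochondrial UMIs and a complexity of at least 0.8. This reading kept 22057 forelimb and 20514 hindlimb cells, close to the totals in the study's methods. Reading the limits as UMIs left far fewer penis cells, with 380 to 424 mesenchyme-like cells per penis library. A cell took a type with at least 3 of 6 markers and at most 1 of every other type's, with exceptions for mesenchyme markers. No doublet caller was run, and the marker rule leaves out cells with markers of several types other than mesenchyme. It allows up to 2 mesenchyme markers in most types and any number in chondrocyte-like and tendon-like cells. Doublets with mesenchyme-like cells can thus remain. Counts were summed per library and type and tested with edgeR 4.0.16 (R 4.3.3): TMM, filterByExpr, quasi-likelihood, Benjamini-Hochberg over all genes. Standard errors are the log2 fold change over the root of F, so they can be too small for large differences where a tissue rests on few UMIs. Depth was 70554067 to 162335993 UMIs per library. UMI counts were treated as molecules, and errors cover the spread between these libraries. Fits without 1 limb library assume that the other varies like the penis libraries. The tests were tried on simulated counts with known changes. Alternatives were DESeq2 1.42.0, other scalings, filters, marker rules, and leaving out each library. Named genes were the 10 members, up to 8 of 28 other imprinted genes by fold, and 2 nearest patterns for each member. The members and lists were chosen with earlier results of these data known, and the comparison with white blood-like cells was set up after the values were seen. Promoter and microRNA sequences came from RefSeq tables (GRCm38.p6).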

Additional observations from a re-analysis of the deposited data

Results flagged for a closer look

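In 20 cases a gene's limb minus penis difference in 1 type differed from that in mesenchyme-like cells by edgeR's test of the interaction in the joint fit (adjusted p under 0.01 and more than 1 on the log2 scale). All values are log2 interactions ± SE, positive where limb minus penis was higher than in mesenchyme-like cells.

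H19, the noncoding RNA beside Igf2, differed in 4 types, by 2.68 ± 0.25 in chondrocyte-like, 2.18 ± 0.22 in endothelial-like, 3.32 ± 0.44 in mural-like and -1.47 ± 0.23 in keratinocyte-like cells. Mest differed by 3.83 ± 0.35 in mural-like and 2.02 ± 0.31 in keratinocyte-like cells. Cdkn1c, the cell-cycle inhibitor, differed by 1.14 ± 0.20 in chondrocyte-like, 1.52 ± 0.27 in mural-like and -2.37 ± 0.21 in glial-like cells. Its limb minus penis value within glial-like cells went from -0.51 to 1.94 with the filter limits read as UMIs, a setting not run for interactions. Peg3 differed by 2.63 ± 0.29 in mural-like and -1.84 ± 0.19 in keratinocyte-like cells.

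Plagl1 differed by -2.52 ± 0.17 in keratinocyte-like and -1.42 ± 0.36 in glial-like cells, and Meg3 by -1.83 ± 0.22 and -1.48 ± 0.21 in the same types. Rian differed by -1.54 ± 0.22 in keratinocyte-like cells. Dlk1 differed by 1.69 ± 0.34 in endothelial-like and 1.90 ± 0.44 in white blood-like cells, Ndn by 1.51 ± 0.42 and Grb10 by 1.00 ± 0.21 in white blood-like cells. Dlk1 in endothelial-like cells lies at the white blood-like level, and the white blood-like values are low. Ndn measured 3.35, 2.39 and 0.97 CPM in penis and 6.02 and 6.12 CPM in limb white blood-like cells. It did not pass the low-count filter in the fit of that type alone, so the size of its interaction is uncertain. In forelimb and hindlimb, Plagl1 in glial-like cells lies at 0.88 and 0.96 times the white blood-like level. In keratinocyte-like cells Meg3 lies at 1.77 and 2.73 times it there and Rian at 2.12 and 1.87 times. In penis, Mest in keratinocyte-like cells lies at 0.56 to 1.59 times the white blood-like level, and in mural-like cells H19 reaches down to 0.73 and Mest to 0.87 times it, so the sizes of these interactions are uncertain.

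Some of these calls were lost when 1 library was left out. Plagl1 in glial-like cells was not called without the second penis library (-1.19), forelimb (-1.54) or hindlimb (-1.38). Cdkn1c was not called in mural-like cells without forelimb (0.79) or in chondrocyte-like cells without the third penis library (0.99), and Dlk1 was not called in endothelial-like cells without forelimb (1.28). In white blood-like cells Ndn was not called without the second penis library (1.50), the third (1.19) or hindlimb (1.50), and Grb10 without the second penis library (0.75) or forelimb (0.96).

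Other calls were lost with a different assignment of cells. With at least 4 of 6 markers Peg3 (0.74, adjusted p = 0.629, edgeR), H19 (2.74) and Cdkn1c (-0.39) were not called in mural-like cells, Plagl1 (-1.22) in glial-like cells and Grb10 (0.99) in white blood-like cells. That setting left 16 forelimb and 17 hindlimb mural-like cells. After thinning, Meg3 (-0.40, adjusted p = 0.477, edgeR) and Plagl1 (0.18) were not called in glial-like cells, H19 (1.25) and Cdkn1c (-0.25) in chondrocyte-like cells, H19 (-0.90) and Meg3 (-1.10) in keratinocyte-like cells, and Dlk1 (1.09), Grb10 (0.93) and Ndn (0.43) in white blood-like cells. Without TMM Grb10 (0.98) was not called in white blood-like cells.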

How the results depend on the processing

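Of 109 values past the limits, 80 stayed past them in the same direction under every alternative run. An adjusted p under 0.05 with no fold limit was among the alternatives for limb against penis and could not end a call. The joint fit had fewer alternatives. Its values against mesenchyme-like cells and its interactions were not run with DESeq2, with the filter limits read as UMIs or without the cell filter. Counts below are members called, of 10 tested unless given. At an adjusted p under 0.05 with no fold limit, 10 were called in chondrocyte-like cells (9 higher and 1 lower, 5 before, with 1976 higher and 2190 lower of all 10057 genes) and 7 in glial-like cells (5 higher and 2 lower, 4 before, with 1376 higher and 1518 lower of 9406). With the filter limits read as UMIs, 2 of 7 tested were called in glial-like cells (4 of 10 before, with 117 higher and 215 lower of all 2578 genes). In white blood-like cells 3 of 5 were called (9 of 9 before, with 583 higher and 851 lower of all 5170 genes), so part of each drop is genes not tested. That setting gave limb minus penis values of 0.29 for Ndn in mesenchyme-like, -0.36 for Peg3 and 1.94 for Cdkn1c in glial-like (adjusted p = 0.000293, edgeR, against -0.51 before) and 0.56 for Plagl1 in keratinocyte-like cells. With at least 4 of 6 markers, 5 of 9 were called in mural-like cells (8 of 10 before, with 130 higher and 203 lower of all 3918 genes), from 16 forelimb and 17 hindlimb cells. Interactions then numbered 5 in endothelial-like, 1 in mural-like and 3 in tendon-like cells (2, 4 and 0 before), and 1 gene differed between tendon-like and mesenchyme-like cells. Shares of all genes called in the joint fit were not computed for any alternative, so these counts are descriptions only. In keratinocyte-like cells this setting gave -0.10 for H19, -0.56 for Dlk1, -0.72 for Rian and -0.35 for Ndn, and the mural-like interaction of Cdkn1c was -0.39. Assignment after thinning gave 0.25 for Meg3 and 0.24 for Cdkn1c in glial-like, 0.30 for Plagl1 in keratinocyte-like and -0.032 for Ndn in mural-like cells. It gave interactions of -0.25 for Cdkn1c in chondrocyte-like and 0.18 for Plagl1 in glial-like cells, 1 and 6 interactions called in chondrocyte-like and endothelial-like cells (2 each before), and 1 gene between tendon-like and mesenchyme-like cells. Ndn in tendon-like cells was 0.027 without TMM, 0.022 without the low-count filter and 0.043 without the cell filter, where Rian in keratinocyte-like cells was -0.14. Between division states Plagl1 was 0.011 without TMM and Peg3 -0.043 with 3 division genes required. The cause was not tested.

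With 1 library left out, the number called in limb against penis was 6 in mesenchyme-like and tendon-like, 8 in endothelial-like and mural-like and 5 in chondrocyte-like cells each time, 3 to 4 in glial-like, 8 to 9 in white blood-like and 2 to 5 in keratinocyte-like cells (2 without the third penis library). Against mesenchyme-like cells it was 0 in chondrocyte-like and tendon-like, 7 in endothelial-like, 8 in glial-like, 5 in mural-like and 10 in white blood-like cells each time, and 8 to 9 in keratinocyte-like cells. Interactions numbered 1 to 3 in chondrocyte-like (1 without the third penis library), 3 to 4 in endothelial-like, 2 to 4 in glial-like (2 without hindlimb), 6 in keratinocyte-like, 3 to 4 in mural-like, 0 to 2 in tendon-like (2 without the second penis library) and 1 to 3 in white blood-like cells (1 without that library). Between division states they numbered 0 each time. Ndn ran from -0.014 to 0.28 in endothelial-like, -0.038 to 0.66 in glial-like, -0.32 to 0.52 in mural-like and -0.058 to 0.034 in tendon-like cells, Peg3 from -0.61 to 0.56 in glial-like and Rian from -0.16 to 0.32 in keratinocyte-like cells. Between division states Peg3 ran from -0.012 to 0.095 and Plagl1 from -0.051 to 0.034. The limb against penis counts hold both directions. Without the first penis library, 2151 higher and 2254 lower of all 19348 genes were called in mesenchyme-like cells. Tendon-like cells gave 602 and 760 of 11668, endothelial-like 634 and 854 of 11888 and mural-like 178 and 262 of 4441. Chondrocyte-like cells gave 724 and 999 of 13963 and glial-like 544 and 746 of 8540. White blood-like cells gave 1136 and 1578 of 12757 and keratinocyte-like 490 and 445 of 9897. Penis and limb libraries could not be paired, since they came from pups and embryos. The joint fit and the fit of division states took the library as a block.

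Tissue, age and library cannot be told apart, and each limb gave 1 library. Types rest on markers, and mural-like cells gave 30 to 44 cells per library, so low members there rest on few UMIs.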

Other observations

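The 28 other imprinted genes were also counted outside mesenchyme-like cells, by edgeR with the same limits. Of 21 tested in chondrocyte-like cells 12 were higher in limb (6.82% of all genes) and 1 was lower (9.76%), and of 22 tested in tendon-like cells 8 were higher (6.2%). In endothelial-like cells 8 of 18 were higher (5.55% of all genes), in mural-like cells 5 of 11 (4.46%), in glial-like cells 3 of 13 (6.17%) and in keratinocyte-like cells 4 of 20 (4.94%). Their median log2 fold change ran from 0.11 in keratinocyte-like to 1.48 in white blood-like cells, where 8 of 14 were higher (10.2% of all genes).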
